A study of Mus musculus with 10 samples.

Results

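The genes described here carry glycerol into the cell or turn glycerol and glycerol 3-phosphate over: the channels Aqp3, Aqp7 and Aqp9, the kinase Gk, and the glycerol-3-phosphate dehydrogenases Gpd1 and Gpd2. They were taken by exact symbol from a deposited table of liver expression, and all 6 symbols were present among its 16874 genes. The table holds 10 libraries of liver RNA from male C57BL/6 mice of 20 to 30 g. The control group is 5 libraries of mice given the vehicle 0.5% CMC by gavage, and the treated group 5 libraries of mice given DEHP at 2500 mg/kg body weight. DEHP is a phthalate plasticizer whose metabolites are known ligands of the PPAR family of nuclear receptors. Both groups carry the same genotype, a liver-specific knockout of Pparg, so no difference can be assigned to it. The sources used here do not give the driver of the deletion, the length of treatment or the age of the mice. The labels name 12 mice per group and no mouse for a library, so a p-value here covers the spread between samples, which may be technical.

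Glycerol released from triglyceride in fat reaches the liver in blood and enters hepatocytes through aquaglyceroporins, water channels that also pass glycerol. AQP9 is the form known for the hepatocyte surface facing the blood, AQP7 for fat cells, and AQP3 for skin and kidney. Glycerol kinase traps glycerol as glycerol 3-phosphate. Cytosolic GPD1 interconverts it with dihydroxyacetone phosphate using NAD, and GPD2, on the mitochondrial inner membrane, oxidizes it and passes the electrons to the respiratory chain. Together GPD1 and GPD2 form a shuttle for reducing equivalents, and glycerol 3-phosphate is also the backbone for new glycerolipids.

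Of the 6 genes, Aqp9 was called higher after DEHP, by 21.7% of its mean, and no other gene of the group passed the test. This call held in 5 of 13 alternative settings and in 3 of the 10 fits with 1 library left out. Among the 13 is the exact permutation test, which could call no gene, since its smallest adjusted p is 0.0742. Gpd1 and Gpd2 had higher means after DEHP but missed the threshold, Gk had nearly equal means, and Aqp3 and Aqp7 were at or near 0 throughout. Values are FPKM, fragments per kilobase of transcript scaled to the mapped fragments of the library, so levels can be set side by side between genes. Testing was by limma on log2(FPKM + 0.5) for the 11242 genes that reached 0.5 FPKM in 5 or more of the 10 libraries, and a call is a Benjamini-Hochberg adjusted p below 0.05. Of the members, 4 passed this filter and 1 was called, higher. Over all tested genes 11.5% were called, 9.12% higher and 2.4% lower, and 25.1% had an unadjusted p below 0.05, so a count of 1 among 4 does not stand apart from the background. The calls split into 1025 higher and 270 lower genes, against 645 and 437 (5.75% and 3.9%) with median-of-ratios scaling and 611 and 546 (5.43% and 4.86%) with quantile normalization.

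**Figure D1:**
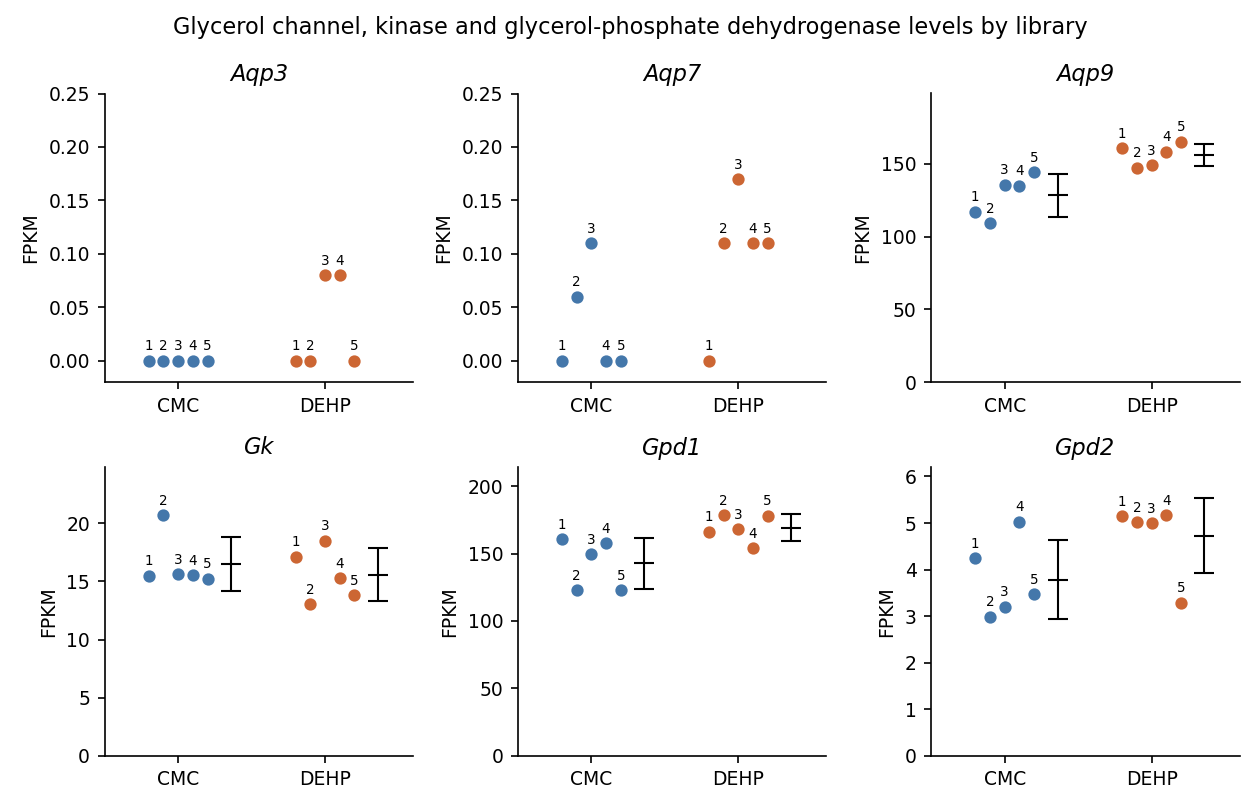
FPKM of the 6 genes in each library, with the library number beside each point, the CMC group in blue and the DEHP group in orange. Bars to the right of the points of tested genes give the mean and SD of 5 libraries. The DEHP values of Aqp9, from 147 to 165 FPKM, lie above every CMC value, while the groups overlap for Gk, Gpd1 and Gpd2.

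The libraries had much the same total signal, with summed FPKM from 696318 to 724127 in CMC and from 688410 to 747577 in DEHP, and total depth is unknown. Of the 6 hepatocyte markers 3 were called lower and 1 higher after DEHP, where 2.4% of all tested genes were called lower and 9.12% higher. The summed level of the 6 was 54057 to 69187 FPKM in CMC and 40682 to 48124 FPKM in DEHP libraries. None of the tested markers of endothelium (7), Kupffer cells (6), stellate cells (6), cholangiocytes (3) or adipocytes (2) was called by limma. Of the red cell markers 1 of 5 tested was called lower, with a summed level of 1227 to 2432 FPKM in CMC and 1060 to 1723 FPKM in DEHP. The 1 tested pancreas marker was called lower, with 29.9 to 79.3 FPKM in CMC and 26.8 to 41.6 FPKM in DEHP. In bulk liver, fewer cells of a type and less RNA per cell cannot be told apart. The part of these marker differences in the results below was not tested. Pparg itself was read in all libraries, with 3.94 ± 1.43 FPKM in CMC and 7.51 ± 1.41 FPKM in DEHP (SD, n = 5 each, limma adjusted p = 0.0118). The table has 1 value per gene and the deleted part is not named, so this level is no check of the deletion.

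Aqp9, on chromosome 9 from 71110659 to 71167849 in GRCm38, was the abundant glycerol channel. CMC libraries 1 to 5 read 117, 109, 136, 135 and 144 FPKM, and DEHP libraries 1 to 5 read 161, 147, 149, 158 and 165 FPKM. The lowest DEHP library lay above the highest CMC library, so the groups did not overlap, as for 8.56% of tested genes in this direction and 2.14% in the other. On average Aqp9 rose from 128 ± 14.5 FPKM to 156 ± 7.62 FPKM (SD over 5 libraries in each group), a log2 fold change of 0.29 (SE 0.08, limma adjusted p = 0.0397). On the linear scale this is 1.22-fold with a 95% interval of 1.08 to 1.38, before any adjustment for the number of genes. A two-sided exact permutation test of Aqp9 alone gave p = 0.00794, the smallest that all regroupings of the 10 libraries allow, and 0.0742 when adjusted over all tested genes. The limma call was lost when any of CMC libraries 1, 2 and 4 or of DEHP libraries 1, 3, 4 and 5 was left out, with adjusted p from 0.0544 to 0.0952 and a log2 fold change of 0.23 to 0.31. It was also lost with median-of-ratios scaling (log2 fold change 0.22, adjusted p = 0.187) and with quantile normalization (0.15, adjusted p = 0.233).

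Aqp7 and Aqp3 are neighbours on chromosome 4, at 41033074 to 41048237 and 41092724 to 41098183 in GRCm38, with 44.5 kb and 1 annotated gene, a small nuclear RNA, between them. For CMC libraries 1 to 5 the table lists Aqp7 at 0, 0.06, 0.11, 0 and 0 FPKM, and for DEHP libraries 1 to 5 at 0, 0.11, 0.17, 0.11 and 0.11 FPKM. It was above 0 in 2 CMC and 4 DEHP libraries, and the ranges overlap. Aqp3 was listed at 0 in all 5 CMC libraries and in DEHP libraries 1, 2 and 5, and at 0.08 FPKM in DEHP libraries 3 and 4. Both lay under the filter and have no limma result in the whole-table fit. Two-sided exact permutation tests on log2(FPKM + 0.5) gave p = 0.175 for Aqp7 and p = 0.444 for Aqp3, without adjustment. For Aqp7 this p was 0.0397 without DEHP library 1, where the gene was listed at 0. Of the 7 adipocyte markers in the table, 5 were low and 2 were not. Adipoq, the gene of the fat hormone adiponectin, reached at most 0.12 FPKM in CMC and 0.25 FPKM in DEHP libraries, and the droplet coat gene Plin1 at most 0.16 and 0.08 FPKM. Retn and Nnat reached at most 0.63 FPKM in any library, and Cfd at most 0.87 FPKM in CMC and 2.08 FPKM in DEHP. Adrb3, a beta-adrenergic receptor of fat cells, read 3.3 to 5.43 FPKM in CMC and 3.12 to 10.13 FPKM in DEHP, and its part in the values of Aqp7 was not tested. Summed over the 7 adipocyte markers in the table the level was 647 to 1405 FPKM in CMC and 640 to 1182 FPKM in DEHP, nearly all of it Car3, which liver also makes.

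PPAR receptors bind DNA with RXR at direct repeats of AGGTCA spaced by 1 base, and Aqp7 is among the genes known as PPAR targets in fat cells. The windows from 250 bases before to 50 after each start were searched on both strands for this element, AGGTCA and AGGTCA in a row with any 1 base between, allowing up to 2 mismatches over its 13 bases. They were also searched for a single exact AGGTCA, which is part of the element. Starts of 5 of the 6 genes were in the RefSeq promoter table (GRCm38.p6), 8 windows in all, and Gpd1 was not. The 2 windows of Aqp7, which overlap, share 1 match, with 2 mismatches, and 1 of them holds a second exact AGGTCA. No window of Aqp3, Aqp9, Gk or Gpd2 held the element or an exact AGGTCA. The Aqp9 windows belong to starts at 71163289 and 71162633, inside the gene. The 5′ end of its annotated span, 71167849 on the minus strand, was not searched. Of all 32851 windows in the table, 3.86% held the element and 16.3% an exact AGGTCA. The windows of Aqp7, with the match, and of Aqp9, the called gene, without it are printed 5′ to 3′ on the gene's strand, with the 13 bases closest to the element in capitals.
Aqp7, chr4:41048087-41048386, minus strand: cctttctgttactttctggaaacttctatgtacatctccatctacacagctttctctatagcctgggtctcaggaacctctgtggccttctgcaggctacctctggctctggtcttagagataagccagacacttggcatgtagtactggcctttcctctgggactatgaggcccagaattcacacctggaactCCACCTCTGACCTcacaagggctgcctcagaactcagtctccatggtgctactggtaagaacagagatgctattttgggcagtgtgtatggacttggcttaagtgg
Aqp9, chr9:71163240-71163539, minus strand: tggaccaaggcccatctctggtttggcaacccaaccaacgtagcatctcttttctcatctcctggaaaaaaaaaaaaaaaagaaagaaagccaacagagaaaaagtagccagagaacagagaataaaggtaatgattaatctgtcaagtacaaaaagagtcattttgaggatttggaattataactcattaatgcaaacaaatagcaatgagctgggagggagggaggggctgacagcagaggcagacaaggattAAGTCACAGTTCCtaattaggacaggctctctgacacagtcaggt
In Aqp7 the capitals read AGGTCAGAGGTGG on the opposite strand, and the first 6 of them match exactly. In Aqp9 the closest 13 bases, AAGTCACAGTTCC, differ at 3 positions from the element and start 5 bases after the start site. A match in these letters is a description of the window and not a binding site, and the lack of one covers these 300 bases only.

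**Figure D2:**
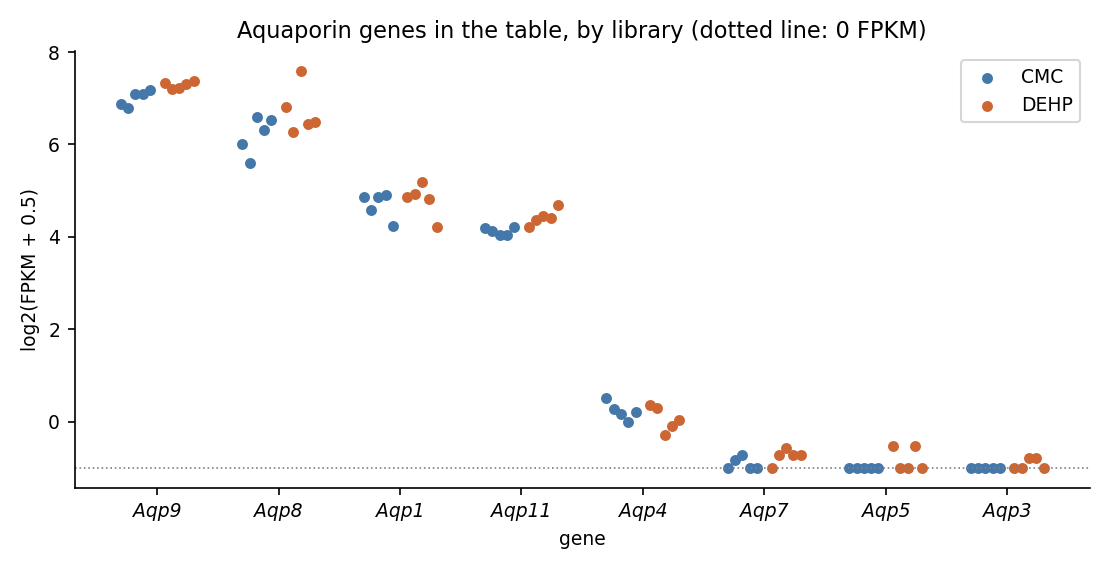
Level of the 8 aquaporin genes of the table in each library as log2(FPKM + 0.5), CMC in blue and DEHP in orange, with the dotted line at 0 FPKM. Aqp9 is the highest in both groups by mean, and Aqp7, Aqp5 and Aqp3 lie at or near the line.

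Among all aquaporins, Aqp9 held 52.0% ± 2.26 of the summed FPKM under CMC and 50.03% ± 7.37 under DEHP (SD, n = 5 each). The low share, 37.3%, belonged to DEHP library 3, where Aqp8 read 193 FPKM. Of Aqp3, Aqp7 and Aqp9 together, Aqp9 made up at least 99.8% in each library. The other aquaporins had 4 tested members, and limma called 0 of them, with 1 at an unadjusted p below 0.05 by limma and 1 by the exact permutation test. Aqp8, a channel of the hepatocyte canalicular membrane and mitochondria, was the most abundant of these, with 75.8 ± 19.9 FPKM in CMC and 112 ± 47.4 FPKM in DEHP (SD, n = 5 each, limma adjusted p = 0.274).

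Gk, on chromosome X from 85701937 to 85776819, is the step that commits free glycerol. The CMC group read 15.5, 20.7, 15.6, 15.5 and 15.2 FPKM in libraries 1 to 5, and the DEHP group 17.1, 13.04, 18.5, 15.3 and 13.8 FPKM. CMC library 2 stood alone at the top, DEHP libraries 2 and 5 lay below every CMC library, and the groups overlapped. The means were 16.5 ± 2.35 and 15.6 ± 2.28 FPKM (SD, n = 5 each), with a log2 difference of -0.08 (SE 0.12, limma adjusted p = 0.716). The 95% interval on the linear scale ran from 0.792-fold to 1.12-fold. The sign rests on 1 or 2 libraries, since the difference was -0.0027 without CMC library 2 and 0.036 without CMC library 2 and DEHP library 5 together. Gk has 4 RefSeq transcripts and 1 other transcript in the table, summed into 1 value.

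Gpd1, on chromosome 15 from 99717587 to 99725014, was the most abundant of the 6 genes. Its level in CMC libraries 1 to 5 was 161, 123, 150, 158 and 123 FPKM, and that in DEHP libraries 1 to 5 was 166, 179, 168, 154 and 178 FPKM. In 4 of 5 DEHP libraries it was above the highest CMC library, and DEHP library 4 fell within the CMC range. The mean was 143 ± 18.7 FPKM in CMC and 169 ± 10.1 FPKM in DEHP (SD, n = 5 each), a log2 difference of 0.25 (SE 0.09). This missed the threshold (limma adjusted p = 0.0973; two-sided exact permutation p = 0.0238 unadjusted), as it did when any 1 library was left out (limma adjusted p = 0.0701 to 0.213). Its 95% interval, 1.04-fold to 1.36-fold before adjustment, largely shares its range with that of Aqp9, and whether the changes of Gpd1 and Aqp9 differ was not tested.

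Gpd2, on chromosome 2 from 57237678 to 57370719, was far lower. With CMC it read 4.24, 2.99, 3.2, 5.03 and 3.47 FPKM in libraries 1 to 5, and with DEHP 5.15, 5.02, 5, 5.17 and 3.29 FPKM. DEHP libraries 1 to 4 lay within 0.2 FPKM of each other at the top of the CMC range, and DEHP library 5 fell among the low CMC values. The means were 3.79 ± 0.841 and 4.73 ± 0.806 FPKM (SD, n = 5 each), with a log2 difference of 0.29 (SE 0.16, limma adjusted p = 0.272). The point estimate is as large as that of Aqp9, but its 95% interval, 0.968-fold to 1.55-fold, is wider and includes no change. Without DEHP library 5 the log2 difference was 0.40 and still missed the threshold (adjusted p = 0.0965).

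Across the group the order of mean levels was Gpd1, Aqp9, Gk, Gpd2, Aqp7 and Aqp3. Gpd1 and Aqp9 did not separate: Gpd1 was the higher in 4 of 5 CMC and 4 of 5 DEHP libraries, and their ranges overlap. Aqp9 exceeded Gk 7.77-fold in CMC and 10.04-fold in DEHP by the ratio of means, and Gk exceeded Gpd2 4.36-fold and 3.29-fold, each in 10 of 10 libraries. Aqp7 and Aqp3 could not be ordered at these levels. By mean FPKM, Gpd1 ranked 617 and Aqp9 658 among all 16874 genes, Gk 3207 and Gpd2 6670. By FPKM, the Gpd1 transcript exceeded that of Gpd2 38.5 ± 5.82 times under CMC and 37.1 ± 9.77 times under DEHP (SD, n = 5 each). This ratio of transcripts spanned 31.4 to 46.8 in CMC. In DEHP it spanned 29.8 to 35.6 in libraries 1 to 4 and was 54.2 in library 5, so the groups overlapped. It gives no ratio of the enzymes.

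The genes with the most similar profile over the 10 libraries were found by Pearson's r of log2(FPKM + 0.5), as a description. For Aqp9 they were Mgst1, a microsomal glutathione transferase (r = 0.986), Tmem97, a sterol-regulated membrane protein (r = 0.961), and Tbcel (r = 0.961). All 3 were themselves called higher after DEHP. For Gpd1 they included Smox, which oxidizes spermine (r = 0.947), and Slc25a17, a peroxisomal carrier (r = 0.945), neither of them called. For Gpd2 (Swap70, Mccc1 and Tefm, r = 0.900 to 0.901) and Gk (Nfx1, Dcaf10 and Rpl23, r = 0.934 to 0.940) no similar gene was called. The highest r of 11242 genes over 10 libraries is large by selection, and the group difference is part of it for Aqp9.

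In 6 lists of genes around glycerol metabolism, 25 of 67 tested genes were called, or 37.3%, against 11.5% of all tested genes. Of these calls 23 were higher and 2 lower. The lists were chosen with earlier results of these data known, so the share is no test of the pathway. Whether this share differs from that of the members was not tested. Of the 25, Mogat1 and Mogat2 passed the filter through the DEHP group, with 0 and 1 of 5 CMC libraries at 0.5 FPKM, so they had to differ. Median-of-ratios scaling lost the calls of Aldoa, Tpi1, Ces1d, Got2 and Agpat3. Quantile normalization lost these and that of Gde1. The largest share of calls was in the list around glycerol release, which holds lipases, phosphodiesterases and the lipase regulators Abhd5, G0s2 and Hilpda. Of its 15 tested members, 9 passed the test, each of them higher and none of them a regulator, and the median log2 fold change was 0.53 against 0.06 over all tested genes. Abhd6, a monoacylglycerol lipase, rose from 13.9 ± 1.51 to 31.3 ± 5.49 FPKM (SD, n = 5 each, log2 fold change 1.13 with SE 0.12, limma adjusted p = 3.43e-05). Mgll, the main monoacylglycerol lipase, which frees glycerol from its last fatty acid, rose from 40.8 ± 5.80 to 82.2 ± 18.1 FPKM (a log2 fold change of 0.99 with SE 0.14, limma adjusted p = 0.000528). Pnpla2, the first lipase of droplet triglyceride, rose from 30.4 ± 2.81 to 45.5 ± 7.66 FPKM, and Lpl, which acts on circulating triglyceride, from 3.94 ± 1.69 to 35.2 ± 6.90 FPKM (SD, n = 5 each, limma adjusted p = 0.00337 and 1.23e-05). Ces1d, a carboxylesterase of a family of close copies and the most abundant of the list, rose from 206 ± 20.4 to 291 ± 75.0 FPKM (limma adjusted p = 0.0379), a call lost without any of CMC libraries 1, 4 and 5 or of DEHP libraries 1 and 5 (adjusted p = 0.0567 to 0.0870). It was also lost with median-of-ratios scaling (adjusted p = 0.0638), with quantile normalization (0.155) and without the 10 most abundant genes (0.0563). G0s2, an inhibitor of Pnpla2, was at 90.4 ± 55.6 and 34.2 ± 13.3 FPKM (log2 difference -1.28, SE 0.43, limma adjusted p = 0.101), and was chosen after its values were seen.

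**Figure D3:**
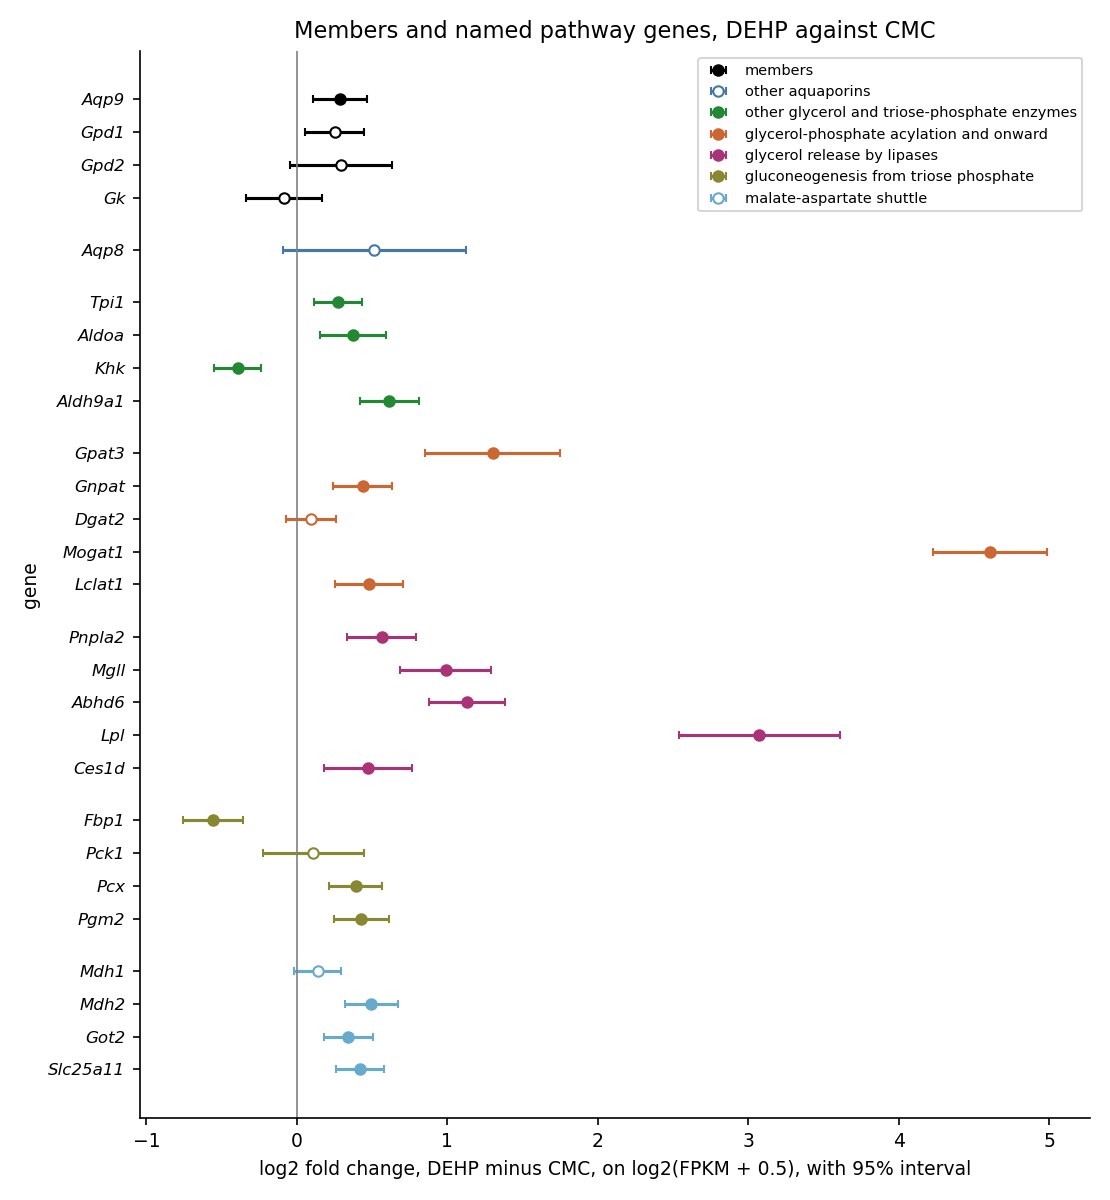
Log2 fold change of the 4 tested members and of the named pathway genes, DEHP minus CMC, with the 95% interval from limma; filled points are called at an adjusted p below 0.05 and colours give the list. Aqp9, at 0.29, is the filled point among the members, while Abhd6 and Mgll lie near 1 and Lpl at 3.07. Mogat1 passed the filter through the DEHP group and had to differ, so its filled point is not reported as a result.

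In the list of glycerol-phosphate acylation and onward steps, 6 of 19 tested genes passed the test, with a median log2 fold change of 0.29. Each of the 6 was higher. They include Mogat1 and Mogat2, which passed the filter through the DEHP group and had to differ, so the count overstates the list. Of the glycerol-3-phosphate acyltransferase genes, Gpat3 was called, and Gpam, Gpat2 and Gpat4 were not (limma adjusted p = 0.0901, 0.241 and 0.628). Gpat3, an enzyme of the endoplasmic reticulum that puts the first acyl chain on glycerol 3-phosphate, rose from 1.18 ± 0.524 to 3.57 ± 0.870 FPKM (log2 fold change 1.30, limma adjusted p = 0.00111). Gnpat, which acylates dihydroxyacetone phosphate in peroxisomes for ether lipids, rose from 14.5 ± 1.38 to 19.8 ± 1.81 FPKM (limma adjusted p = 0.00710). Lclat1, a lysocardiolipin acyltransferase, rose from 7.19 ± 1.00 to 10.2 ± 0.288 FPKM (limma adjusted p = 0.00841). Mogat1, which builds diacylglycerol from monoacylglycerol without glycerol 3-phosphate, averaged 0.098 FPKM in CMC and 14.2 FPKM in DEHP. Its log2 fold change, 4.60, was the highest of the list. The gene passed the filter through the DEHP group, so its call is not reported as a result. Dgat2, which closes the pathway to triglyceride and is the most abundant of the list, was at 233 ± 11.8 and 249 ± 23.6 FPKM (limma adjusted p = 0.501).

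Of the other enzymes of glycerol and triose phosphates, 3 of 12 tested were higher and 1 lower, with a median log2 fold change of 0.23. Aldh9a1, an aldehyde dehydrogenase, rose from 93.5 ± 8.60 to 144 ± 15.3 FPKM (a log2 fold change of 0.61 with SE 0.09, limma adjusted p = 0.000595). Khk, the fructose kinase, fell from 349 ± 22.8 to 265 ± 18.5 FPKM (-0.39 on the log2 scale, SE 0.07, limma adjusted p = 0.00298). Aldoa, an aldolase, rose from 75.9 ± 10.7 to 98.1 ± 11.2 FPKM and Tpi1, which interconverts the triose phosphates, from 280 ± 20.1 to 338 ± 25.1 FPKM (limma adjusted p = 0.0308 and 0.0309). Neither call was firm, and both were lost without any of CMC libraries 1, 3, 4 and 5 or of DEHP libraries 1, 3 and 5 (adjusted p = 0.0542 to 0.0834 for Aldoa and 0.0573 to 0.0801 for Tpi1). Neither held with median-of-ratios scaling (adjusted p = 0.0864 and 0.129).

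In the list of genes around glucose formation, 2 of 10 tested genes were higher and 1 lower, with a median log2 fold change of 0.07. The list also holds genes outside the path from triose phosphate to glucose, and the 2 higher ones, Pgm2 and Pcx, are among these. Fbp1, the fructose bisphosphatase through which carbon from glycerol must pass to become glucose, fell from 717 ± 104 to 484 ± 31.6 FPKM (-0.56 on the log2 scale, SE 0.09, limma adjusted p = 0.00153), with no overlap between the groups. Pgm2, a phosphoglucomutase, rose from 87.3 ± 8.25 to 118 ± 10.1 FPKM and Pcx, the pyruvate carboxylase, from 92.9 ± 6.56 to 122 ± 11.4 FPKM (limma adjusted p = 0.00430 and 0.00655). The Pcx call was close to the threshold with median-of-ratios scaling (adjusted p = 0.0446), quantile normalization (0.0498) and the clock covariate (0.0494). Pck1, which serves lactate and amino acids rather than glycerol, was at 1034 ± 194 and 1122 ± 238 FPKM (limma adjusted p = 0.726).

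The malate-aspartate shuttle also moves reducing equivalents into mitochondria. Of its 7 genes, all tested, 3 passed the test, each of them higher, with a median log2 fold change of 0.22. Mdh2, the mitochondrial malate dehydrogenase, rose from 172 ± 9.91 to 243 ± 26.5 FPKM (a log2 fold change of 0.50 with SE 0.08, limma adjusted p = 0.00128). The carrier gene Slc25a11 rose from 35.9 ± 2.43 to 48.3 ± 2.70 FPKM and the mitochondrial aminotransferase gene Got2 from 225 ± 11.8 to 286 ± 25.8 FPKM (limma adjusted p = 0.00219 and 0.00878). Got2 lost its call with median-of-ratios scaling (adjusted p = 0.0701), quantile normalization (0.0815) and the clock covariate (0.0751). Mdh1, the cytosolic dehydrogenase, was at 339 ± 23.7 and 372 ± 21.7 FPKM (limma adjusted p = 0.261). Whether these changes differ from those of Gpd1 or Gpd2 was not tested.

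**Figure D4:**
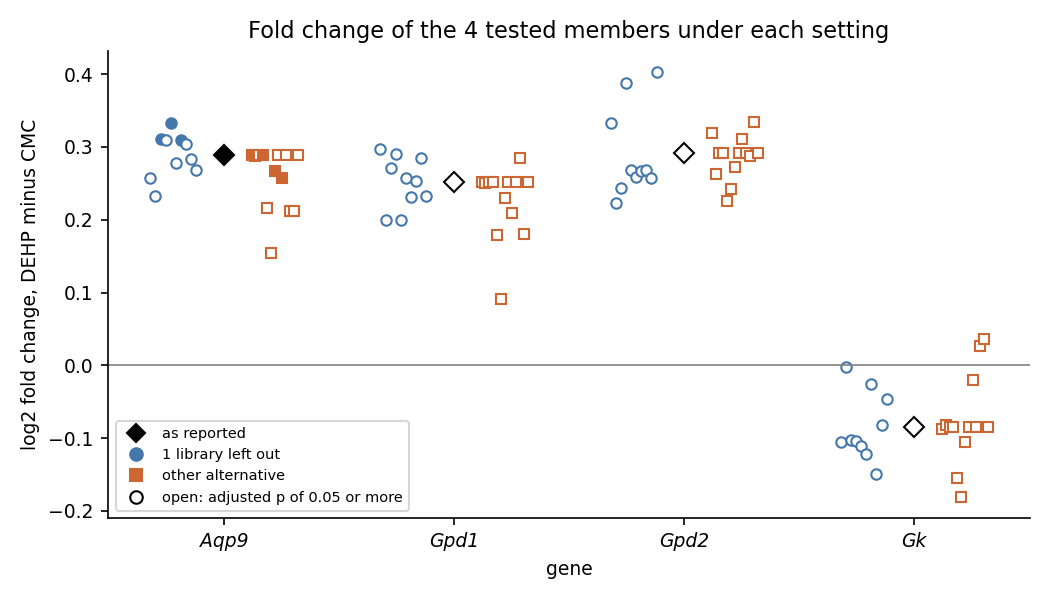
Log2 fold change of the 4 tested members, DEHP minus CMC, as reported (diamond), with 1 library left out (blue circles) and under the other alternatives (orange squares); filled points have an adjusted p below 0.05. Aqp9, Gpd1 and Gpd2 stay above 0 throughout, filled points occur for Aqp9, and Gk lies on both sides of 0.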

How the data were processed

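Liver RNA was measured in 10 libraries, which the labels describe as TruSeq libraries of total RNA. The deposited FPKM values are the authors', per the file headers, 1 per gene and library. The submitters' processing notes name Cuffdiff, mm10 and GRCm38, without version or role. No aligner is named (not given in the sources used here). FPKM is relative to the library total, so a fall of abundant transcripts raises other values, and near-identical copies can trade reads. No counts were given, so no count model was used.

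Of 16874 gene IDs, 16833 matched a GRCm38.p6 gene table, the source of coordinates, and 22 symbols stored as dates were restored. The 11242 genes that reached 0.5 FPKM in 5 or more libraries were fitted as log2(FPKM + 0.5) by limma 3.58.1 (R 4.3.3), using its intensity trend and robust variance and Benjamini-Hochberg adjustment over these genes. Fold changes on this scale understate low genes. The fit was tested on simulated data. Exact permutation tests were two-sided over all regroupings of 5 against 5 libraries. No library was a copy of another, since any 2 shared the same value in at most 0.943% of tested genes.

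The members, lists, tests and alternatives were chosen with earlier results of these data known. Named in each list are the called genes, up to 4 by smallest p, and the most abundant one. For each tested member, the 3 genes of mean at least 1 FPKM with the highest r are named. Of the genes these rules choose, 2 are not reported here. The alternatives changed the pseudocount (0.1 or 1), the filter (none or 2 FPKM), the scaling (median-of-ratios, quantile, or the 10 most abundant genes removed) and the variance model (no trend or robust variance, or array weights). Others were a block for the replicate number, the exact permutation test, the first component of 16 clock genes as a covariate, and leaving out libraries. Figures used Matplotlib 3.10.9 in Python 3.11.15 (NumPy 2.4.6, SciPy 1.17.1, pandas 2.3.3).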

Additional observations from a re-analysis of the deposited data

Results flagged for a closer look

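In 60 groups of 5 libraries, those of the 6 members and of 24 pathway genes chosen by the naming rule, 8 held a library whose gap to the nearest other exceeded 0.71 of the group's range, where chance gives about 1 in 20. For the members, Gk read 20.7 FPKM in CMC library 2 against 15.2 to 15.6 FPKM in the other four, and Gpd2 read 3.29 FPKM in DEHP library 5 against 5 to 5.17 FPKM. Aldoa was also high in CMC library 2, at 94.0 FPKM, and Mdh1 low in CMC library 1, at 297 FPKM. DEHP library 5 was high for Mdh2 (289 FPKM) and Pnpla2 (58.8 FPKM). DEHP library 3 was high for Ces1d (423 FPKM) and Gnpat (22.9 FPKM).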

How the results depend on the processing

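The log2 fold changes of Aqp9, Gpd1 and Gpd2 stayed positive under each alternative run, from 0.15 to 0.33, 0.09 to 0.30 and 0.22 to 0.40. The call of Aqp9 held with either other pseudocount, with the filter at 2 FPKM, without the 10 most abundant genes and with array weights. It was lost, and the count of called members went from 1 to 0, with no filter (0.29, adjusted p = 0.0584), median-of-ratios scaling (0.22), quantile normalization (0.15), limma without trend or robust variance (0.29, adjusted p = 0.0865), the clock covariate (0.21, adjusted p = 0.220), without CMC library 2 and DEHP library 5 (0.21, adjusted p = 0.09995) and by the exact permutation test (0.29, adjusted p = 0.0742); the cause was not tested. With 1 library left out Aqp9 ranged from 0.23 to 0.33 and the called members from 0 to 1. The fold change of Gk was 0.026 with the clock covariate and 0.036 without CMC library 2 and DEHP library 5. Those of Dgat2 and Pck1, not called, were -0.065 and -0.014 with quantile normalization. Aqp7 ranged from 0.13 to 0.23 with 1 library left out, with an exact p of 0.0397 without DEHP library 1. The mean clock component was -1.47 ± 3.11 under CMC and 1.47 ± 1.93 under DEHP (SD, exact permutation p = 0.103 over 5 and 5 libraries), and with it 819 genes of the table were called in place of 1295. The exact permutation test called 0 genes and 0 of the pathway genes, where its smallest adjusted p is 0.0742, with 2681 genes at an unadjusted p below 0.05. With 1 library left out 941 to 1274 genes and 21 to 26 pathway genes were called. With the replicate number as a block the Aqp9 log2 fold change was 0.29 (limma adjusted p = 0.0608). In this fit 0 members, 22 pathway genes and 1045 genes were called. Same-numbered libraries did not deviate together (r = -0.07 to 0.05 over 5 pairs, 0 of 5 best with their own number). Differently numbered pairs had r from -0.18 to 0.19, and whether same-numbered libraries share a batch was not tested. Scaling moved the median of all genes by -0.06 (median-of-ratios) and -0.07 (quantile). Depth is unknown, and levels such as those of Aqp3 and Aqp7 are at the limit of what the table resolves.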

Other observations

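Among called pathway genes outside the naming rule, and chosen here after their values were seen, were enzymes that act on the remnants of phospholipids. Gpcpd1, which cleaves glycerophosphocholine to choline and glycerol 3-phosphate, rose from 11.9 ± 3.55 to 24.7 ± 5.11 FPKM (SD, n = 5 each, log2 fold change 1.04, limma adjusted p = 0.00438) and stayed called when any 1 library was left out (adjusted p up to 0.0152). Gde1, a glycerophosphodiester phosphodiesterase, rose from 34.1 ± 6.81 to 48.97 ± 6.51 FPKM (log2 fold change 0.53, limma adjusted p = 0.0162) and was not called with quantile normalization (adjusted p = 0.0654). Abhd12, a lipase of lysophospholipids and monoacylglycerol, rose from 15.0 ± 0.913 to 20.5 ± 2.09 FPKM (limma adjusted p = 0.00636). The remaining 3 were Lipg, Agpat3 and Mogat2. Mogat2 passed the filter through the DEHP group, so its call is not reported as a result, and its mean was 0.304 FPKM in CMC and 1.07 FPKM in DEHP. Lipg and Agpat3 had limma adjusted p of 0.0303 and 0.0165. Lipg lost its call without any of CMC libraries 1, 2 and 5 or of DEHP libraries 1, 2 and 3 (adjusted p up to 0.0746) and with the clock covariate (0.0734). Agpat3 lost its call with median-of-ratios scaling (adjusted p = 0.0926), quantile normalization (0.194) and the clock covariate (0.0525). Aqp11, an intracellular aquaporin, also chosen after its values were seen, was at 17.0 ± 0.987 FPKM in CMC and 21.1 ± 2.59 FPKM in DEHP (log2 difference 0.30, limma adjusted p = 0.0554). It was past the threshold with the filter at 2 FPKM (adjusted p = 0.0464) and without DEHP library 1 (adjusted p = 0.0369), and not with median-of-ratios scaling (adjusted p = 0.199).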
